A study of Danio rerio with 6 samples.

Results

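The genes described here carry fatty acids into heart cells, oxidise them in mitochondria and run the tricarboxylic acid (TCA) cycle. They were chosen by name, from a list of 59 zebrafish gene names that was drawn up with earlier results of these data known. Of these names 50 were found, some sharing an ID, and they stand for 49 of the 14211 gene IDs in the table. They fall into 8 IDs of fatty acid uptake, activation and storage, 4 of carnitine-dependent entry into mitochondria, 16 of beta oxidation, 12 of the TCA cycle, 2 of ketone body use and 7 of regulators and uncoupling proteins. The names cd36, mlycd, hadhb, eci2, etfa, cs, ogdhb, oxct1a and ppargc1b were not analysed here, so the oxidation and TCA groups are incomplete.

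Every sample was pooled RNA from the ventricle apex of adult AB zebrafish after cryoinjury, a wound made with a cold probe. One group received RO, a small-molecule inhibitor of gamma secretase, and the control group received its DMSO carrier, both by peritoneal injection at 24 h and 48 h after injury, and tissue was taken at 72 h. There were 3 libraries per group, each pooling the apices of 3 hearts, numbered 1, 2 and 3 for DMSO and 2, 3 and 4 for RO. Gamma secretase cleaves Notch receptors among other membrane proteins, and its activity was not measured in these libraries. Each library averages 3 hearts, so the spread between single fish was not measured. No uninjured heart is among the groups compared.

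A beating heart draws most of its energy from fatty acids. Acyl-CoA synthetases activate them, the carnitine shuttle carries them across the mitochondrial membranes, and each turn of beta oxidation shortens the chain and yields acetyl-CoA, which the TCA cycle oxidises further. In the regenerating zebrafish heart, cardiomyocytes beside the wound are known to lower such mitochondrial genes and to raise glycolytic ones.

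Depth ran from 3306018 to 4463303 reads in a library, counting only reads recovered for the genes of the table. The level of myl7 fits the labelled tissue: this myosin light chain gene of zebrafish heart muscle lay between 9441 and 13004 on the deposited scale. All 16 measured cardiomyocyte genes were detected in every library. That says little about the tissue, since 18 to 25 of the 14211 IDs were at 0 in a library. Over all genes, 147 passed an adjusted p of 0.05 (limma-trend with Benjamini-Hochberg adjustment, the test behind every adjusted p here), 92 higher in RO and 55 lower, and the median log2 fold change (RO minus DMSO, on log2(value + 0.5)) was -0.010. RO replicate 2 lay farthest from the DMSO libraries on the first principal component, at 23.6 against 6.7 and 10.2 for the other RO libraries.

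In the RO pools 2 of the 49 IDs were called higher, both of the acyl-CoA synthetase ACSL4, and none was called lower. That is 4.08% of the members called higher, where 0.647% of all genes were called higher and 0.387% lower. Both calls come from 1 listed name, acsl4a, and 1 of them ranked last by p of the 147 genes called. Of the members, 39 lay below a log2 fold change of 0 and 10 above, with a median of -0.14. Groups did not overlap for 4 members that were higher in RO (8.16%, against 9.32% of all genes) and for 2 that were lower (4.08%, against 9.35%). At an unadjusted p below 0.05 there were 6 members (12.2%), where 13.4% of all genes reached it. Among the 1379 genes with a mean value of at least 100, 21.1% reached it. Of those 1379 genes 43.4% lay below 0, with a median of 0.031. The shares of the members without overlap and at an unadjusted p below 0.05 lie near or below those of all genes. The share called higher, from ACSL4 alone, lies above. So does the share below 0, at 79.6% of the members against 51.6% of all genes.

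**Figure D1:**
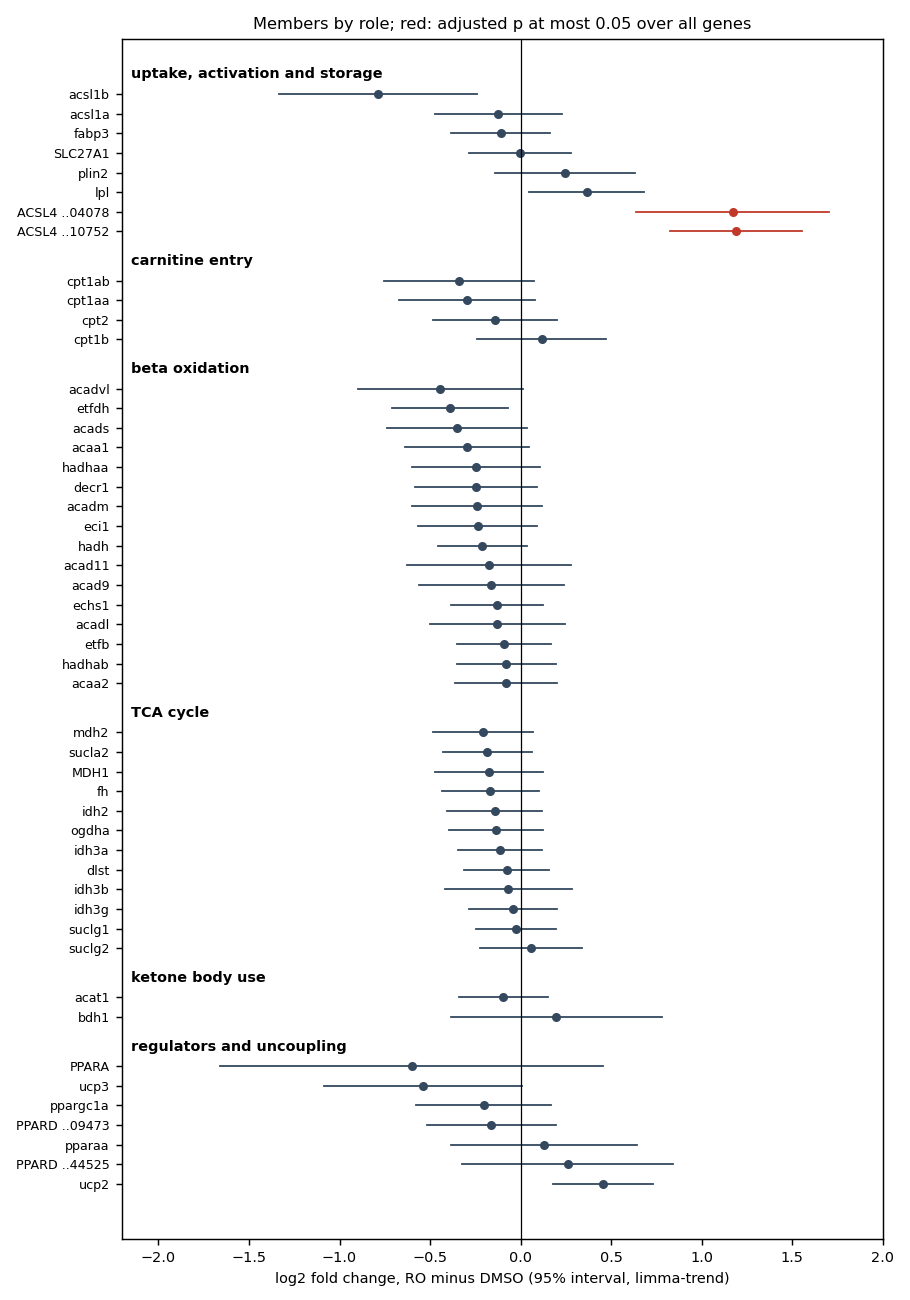
Log2 fold change (RO minus DMSO) of the 49 member IDs by role, with 95% intervals from limma-trend (3 libraries per group). The 2 ACSL4 IDs, in red, passed the threshold. All 16 beta oxidation IDs and 11 of 12 TCA cycle IDs lie left of 0, most with intervals that cross it.

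Fatty acid activation carried the calls. ACSL4 encodes an acyl-CoA synthetase that in mammals prefers long polyunsaturated fatty acids such as arachidonate. Zebrafish acsl4a was matched to 2 IDs of that name, which the symbols used here do not tell apart. The first, ENSDARG00000010752, stood at 37.9, 38.2 and 43.2 in DMSO replicates 1, 2 and 3 and at 69.5, 99.4 and 109.5 in RO replicates 2, 3 and 4. Every RO pool lay above every DMSO pool. It rose 2.28-fold (log2 fold change 1.19, SE 0.17, 95% interval 0.82 to 1.55, adjusted p = 0.00933). The second, ENSDARG00000004078, stood at 22.4, 13.7 and 24.1 in DMSO and at 59.2, 33.5 and 44.3 in RO, again without overlap. It rose 2.25-fold (log2 fold change 1.17, SE 0.24, interval 0.64 to 1.70, adjusted p = 0.0496). The call of the first ended without DMSO replicate 2 (adjusted p = 0.0632). The call of the second ended whichever library was left out (0.0599 to 0.129). RO replicate 2 was the lowest RO library for the first ID and the highest for the second. Whether the 2 IDs share reads was not tested.

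The acsl1 synthetase genes did not share this direction. acsl1b, of the family that feeds fatty acids to mitochondria in mammalian heart, stood at 116, 173 and 167 in DMSO and at 57.5, 127 and 88.6 in RO. RO replicate 3 lay above DMSO replicate 1, so the groups overlapped. Its log2 fold change was -0.79 (interval -1.33 to -0.24, adjusted p = 0.184). It was the lowest log2 fold change among the members. acsl1a stood at 44.0, 65.8 and 52.1 in DMSO and at 55.3, 45.3 and 46.5 in RO, all 3 RO pools within the DMSO range (log2 fold change -0.12, adjusted p = 0.801).

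Among the genes that release, carry and store fatty acids, lpl encodes the lipase that frees them from circulating lipoproteins. It stood at 67.8, 57.0 and 64.3 in DMSO and at 70.7, 98.8 and 76.4 in RO. The RO pools lay above all DMSO pools, by a small margin for RO replicate 2. The log2 fold change was 0.36 (interval 0.05 to 0.68) and did not pass (adjusted p = 0.299). fabp3, the fatty acid binding protein of heart muscle, stood at 567, 675 and 702 against 543, 598 and 658, and the groups overlapped (log2 fold change -0.11, adjusted p = 0.767). The lipid droplet coat gene plin2 had a log2 fold change of 0.25 (adjusted p = 0.608), with values from 13.7 to 19.4 in DMSO and from 17.3 to 21.2 in RO. The 1 ID for the transporters slc27a1a and slc27a1b had means of 74.6 ± 9.36 and 74.2 ± 5.77 (SD, n = 3 per group), a log2 fold change of -0.0032 with an interval of -0.29 to 0.28. The role as a whole was divided, with 4 IDs above 0 and 4 below and a median of 0.12.

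**Figure D2:**
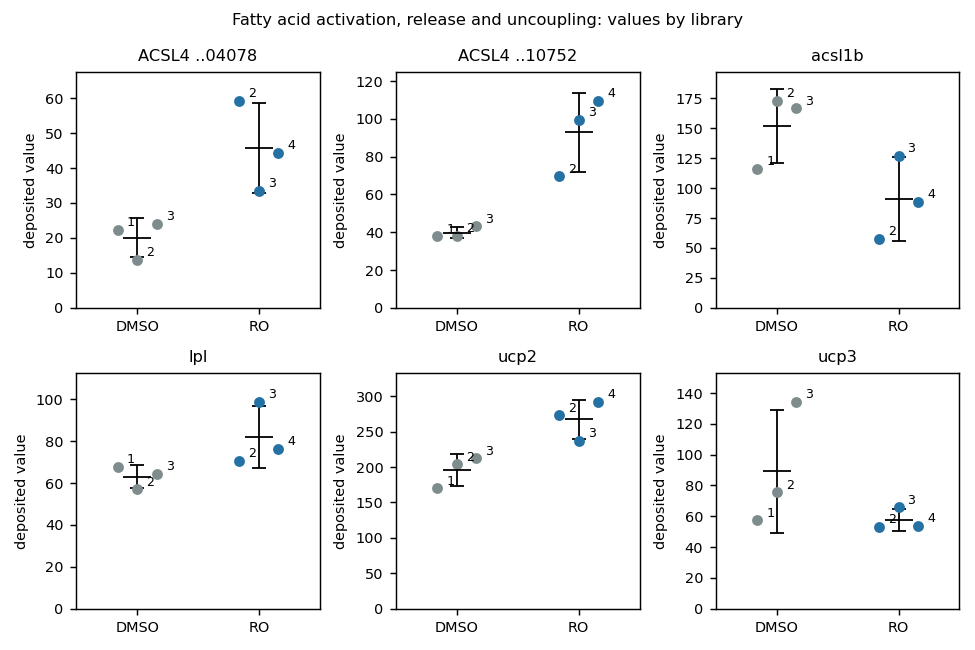
Deposited values by library (vertical axis, from 0) for both ACSL4 IDs, acsl1b, lpl, ucp2 and ucp3, in DMSO (grey) and RO (blue). Numbers beside the points are replicate numbers, and bars are mean and SD of 3 libraries. For both ACSL4 IDs, lpl and ucp2 every RO library lies above every DMSO library.

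Marker lists of thrombocytes and macrophages lay above 0 beside ACSL4, a gene that macrophages of mammals also express. Other blood cell lists did not clearly do so. Of 5 erythrocyte marker IDs 3 lay below 0, with a median of -0.015. That median ran from -0.31 without DMSO replicate 2 to 0.32 without DMSO replicate 1. The 4 neutrophil marker IDs had a median of 0.083, which was -0.058 without DMSO replicate 2. Among 9 endothelial and endocardial marker IDs, 4 lay above 0 and 5 below, with a median of -0.0091. The 2 of them that passed were higher in RO. Of 6 thrombocyte marker IDs all lay above a log2 fold change of 0, with a median of 0.74, and 1 of them, of the 2 IDs of the integrin adaptor gene fermt3b, passed (log2 fold change 0.97, adjusted p = 0.0468). Their summed values were 77.8, 95.5 and 90.8 in DMSO replicates 1, 2 and 3 and 196, 145.4 and 127 in RO replicates 2, 3 and 4, without overlap. Of 12 macrophage marker IDs 10 lay above 0, with a median of 0.22, and none passed. With another test, DESeq2, 1 macrophage and 3 thrombocyte marker IDs passed. Summed, the macrophage markers ran from 1024 to 1182 in DMSO and from 1322 to 1748 in RO, highest in RO replicate 2. RO replicate 2, highest for both lists, was the highest RO library for one ACSL4 ID and the lowest for the other. No marker of either list was at 0 in a library. In bulk tissue more cells of a type and more RNA per cell cannot be told apart. The part of any of these cell types in the ACSL4 values was not tested.

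The carnitine step commits long-chain acyl groups to mitochondria. cpt1ab, a paralog of the liver-type outer membrane transferase, stood at 277, 336 and 369 in DMSO and at 186, 286 and 320 in RO (log2 fold change -0.34, interval -0.75 to 0.08, adjusted p = 0.492). Only RO replicate 2 lay outside the DMSO range. cpt1aa, the other liver-type paralog, stood at 29.7, 28.9 and 25.3 against 22.1, 28.0 and 18.7 (-0.30, adjusted p = 0.506). RO replicates 2 and 4 lay below all DMSO pools and RO replicate 3 among them. The muscle-type gene cpt1b lay the other way, at 85.1, 101 and 122 against 91.9, 112 and 131 (0.12, interval -0.24 to 0.47, adjusted p = 0.817), and its log2 fold change was -0.013 when DMSO replicate 1 was left out. The inner membrane transferase gene cpt2 had a log2 fold change of -0.14 (adjusted p = 0.763). No carnitine entry gene passed, and their median was -0.22.

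No beta oxidation gene passed, and all lay a little below their DMSO level in RO. All 16 measured IDs had log2 fold changes below 0, from -0.44 to -0.078, with a median of -0.22. Of all genes 51.6% lay below 0, and their lower quartile was -0.20. Of the genes with a mean value of at least 100, a level that not all 16 reach, 43.4% lay below 0. The lower quartile of those genes was -0.10. Summed over the 16, values came to 4135, 4307 and 5331 in DMSO and to 3059, 3983 and 4270 in RO. RO replicate 4 lay above DMSO replicate 1, so the sums overlapped. Without RO replicate 2, 12 of the 16 lay below 0 and the median was -0.11. These genes share their libraries and move together between pools, so 16 IDs are not 16 separate observations: in DMSO replicate 1 as well, all 16 lay below the mean of the DMSO libraries.

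The first step of each turn is done by the acyl-CoA dehydrogenases, which differ in the chain length they take. acadvl, for very long chains, stood at 1733, 1472 and 2355 in DMSO and at 998, 1555 and 1543 in RO. RO replicates 3 and 4 lay within the DMSO range and RO replicate 2 below it (log2 fold change -0.44, interval -0.90 to 0.01, adjusted p = 0.389). acads, for short chains, stood at 126, 134 and 132 in DMSO and at 76.5, 103 and 136 in RO (-0.35, interval -0.74 to 0.03, adjusted p = 0.427). DMSO pools lay close together, while the RO pools spread from well below to above them. acadm, for medium chains, stood at 474, 501 and 589 against 347, 440 and 554 (-0.24, adjusted p = 0.589). RO replicate 4 lay within the DMSO range and the other RO pools below it. The long-chain gene acadl and the family members acad9, which in humans also helps assemble respiratory complex I, and acad11 had log2 fold changes of -0.13, -0.16 and -0.17, and all 3 turned above 0 without RO replicate 2.

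Electrons from these dehydrogenases pass to the electron transfer flavoprotein and from it to ubiquinone through the enzyme encoded by etfdh. That gene stood at 175, 173 and 186 in DMSO and at 106, 155 and 151 in RO. It was the 1 beta oxidation member whose groups did not overlap (6.25% of the 16, where 9.35% of all genes were lower without overlap). RO replicate 2 was lowest (log2 fold change -0.39, SE 0.15, interval -0.71 to -0.07), and the gene did not pass (adjusted p = 0.273). Without RO replicate 2 its log2 fold change was -0.22. etfb, a subunit of the flavoprotein, lay at -0.091, with 203, 256 and 255 in DMSO against 222, 218 and 225 in RO. The RO pools lay within the DMSO range.

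The later steps hydrate, oxidise and cleave the chain. The 2 alpha subunit genes of the trifunctional protein, hadhaa and hadhab, had log2 fold changes of -0.25 (interval -0.60 to 0.11) and -0.078 (-0.35 to 0.20). hadhaa stood at 287, 400 and 417 in DMSO and at 259, 321 and 346 in RO. The short-chain hydratase gene echs1 and the 3-hydroxyacyl-CoA dehydrogenase gene hadh lay at -0.13 and -0.21. The thiolase genes acaa1, peroxisomal, and acaa2, mitochondrial, lay at -0.30 and -0.078. For unsaturated chains, the isomerase gene eci1 lay at -0.24 and the reductase gene decr1 at -0.25. For these 8 genes the groups overlapped and adjusted p was between 0.458 and 0.847.

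**Figure D3:**
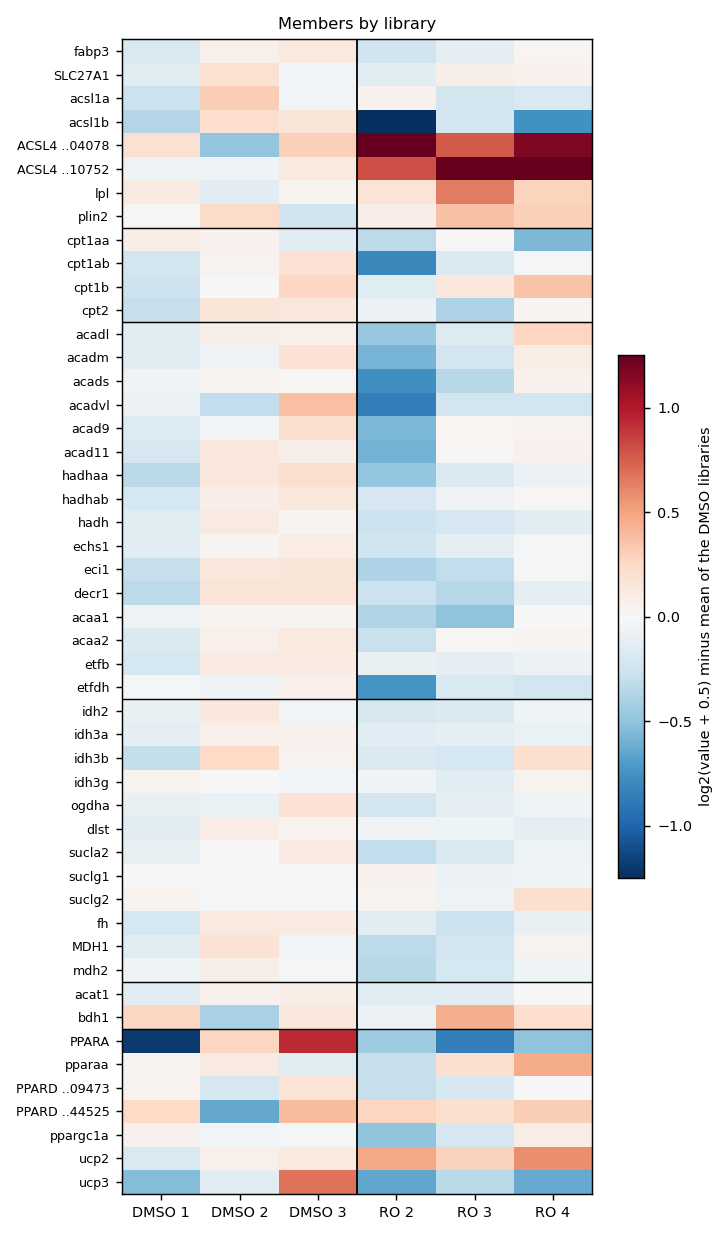
Each row is a member ID and each column a library. Colour gives log2(value + 0.5) minus the mean of the DMSO libraries, limited at the ends of the colour bar, and black lines part the roles and groups. Most beta oxidation genes are darkest blue in RO replicate 2 and near white in RO replicate 4, and all 16 lie below the DMSO mean in DMSO replicate 1.

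No TCA cycle gene passed. Of 12 IDs 11 lay below 0, from -0.21 to 0.056, with a median of -0.13. Every one of the 12 had a log2 fold change smaller than 0.25 in size. The 95% intervals of single genes lay between -0.48 and 0.34. Summed over the 12, values came to 5860, 6651 and 6297 in DMSO and to 5302, 5497 and 6094 in RO, with RO replicate 4 above DMSO replicate 1. Without RO replicate 2 the count was still 11 of 12 and the median -0.10, without RO replicate 3 it was 9 of 12, and without DMSO replicate 3 the median was -0.074.

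Within the cycle, 1 of the 12 IDs (8.33%) was lower in RO without overlap, where 9.35% of all genes were so. This was mdh2, the mitochondrial malate dehydrogenase. It stood at 1882, 2051 and 1922 in DMSO and at 1533, 1673 and 1878 in RO. RO replicate 4 lay just under the lowest DMSO pool (log2 fold change -0.21, interval -0.48 to 0.07, adjusted p = 0.534). sucla2, the ATP-forming subunit of succinyl-CoA ligase, stood at 231, 245 and 264 against 199, 218 and 236 (-0.18, adjusted p = 0.534), with RO replicate 4 among the DMSO pools. fh, fumarate hydratase, stood at 288, 365 and 359 against 304, 278 and 315 (-0.17, adjusted p = 0.622). idh2, the NADP-dependent isocitrate dehydrogenase of mitochondria, stood at 1371, 1598 and 1429 against 1271, 1294 and 1411 (-0.14, interval -0.41 to 0.12, adjusted p = 0.667). For fh and idh2 the lowest DMSO pool, replicate 1, lay within the RO range.

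No other TCA member had groups apart. The subunits of the NAD-dependent isocitrate dehydrogenase, idh3a, idh3b and idh3g, had log2 fold changes of -0.11, -0.068 and -0.044. The 2-oxoglutarate dehydrogenase genes ogdha and dlst lay at -0.14 and -0.076. The succinyl-CoA ligase genes suclg1 and suclg2 lay at -0.025 and 0.056. The 1 ID for the cytosolic malate dehydrogenases mdh1aa and mdh1ab lay at -0.17, with 689, 872 and 750 in DMSO against 613, 649 and 789 in RO. Adjusted p of these 8 IDs was between 0.644 and 0.946.

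**Figure D4:**
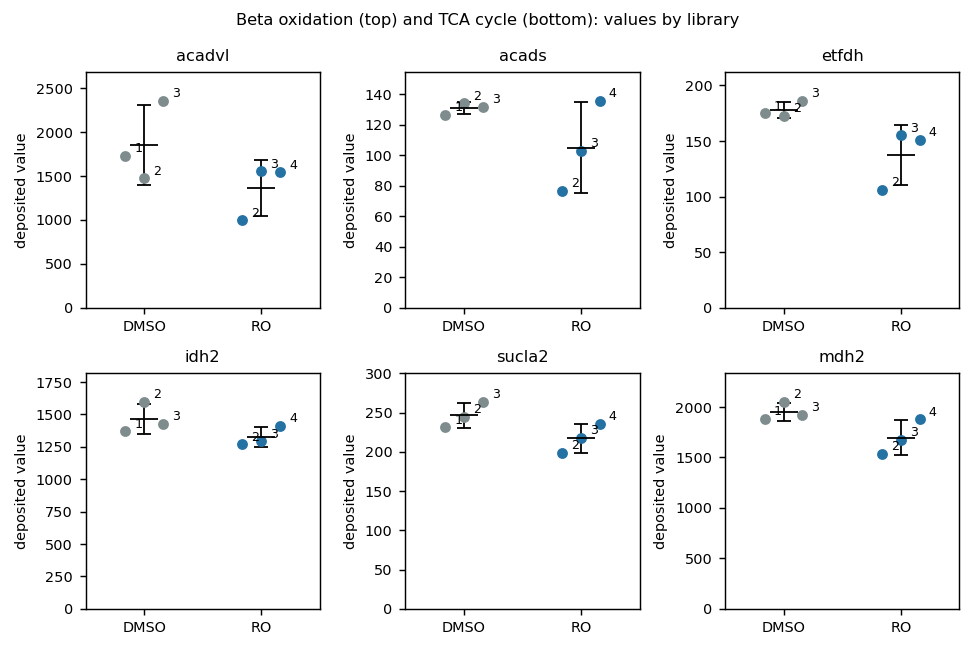
Deposited values by library (vertical axis, from 0) for acadvl, acads and etfdh of beta oxidation and idh2, sucla2 and mdh2 of the TCA cycle, in DMSO (grey) and RO (blue), with replicate numbers and bars for mean and SD of 3 libraries. RO replicate 2 is the lowest library in each panel, and the groups stay apart in etfdh and mdh2 alone.

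Marker lists of heart muscle and of matrix-forming cells lay below 0 beside the oxidation genes. The 4 skeletal muscle marker IDs were split, 2 above 0 and 2 below, with a median of 0.12. Of 16 cardiomyocyte marker IDs 13 lay below 0, with a median of -0.12 (-0.031 without RO replicate 2), and none passed. Their summed value was 77769, 88692 and 87411 in DMSO replicates 1, 2 and 3 and 68385, 75631 and 86507 in RO replicates 2, 3 and 4. The pools that were low for beta oxidation, DMSO replicate 1 and RO replicates 2 and 3, were low for these markers too. Of 14 fibroblast and matrix marker IDs 12 lay below 0, with a median of -0.51 (-0.59 without RO replicate 2), and none passed. With DESeq2 6 of these 14 passed. In 8 of the 14 the groups did not overlap and RO was lower, where 9.35% of all genes were so. Summed over the 14, values were 11235, 9520 and 11650 in DMSO and 9340, 7993 and 7213 in RO. The sum was lowest in RO replicate 4, where the oxidation genes lay nearest to DMSO. The 2 adipocyte marker IDs had a median of -0.42 and none passed, with adipoqa between 1.40 and 4.76. Mitochondrially encoded transcripts took 10.8% to 12.2% of the reads in DMSO and 10.2% to 11.3% in RO. The part of muscle, matrix-forming or fat cells in the oxidation values was not tested.

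**Figure D5:**
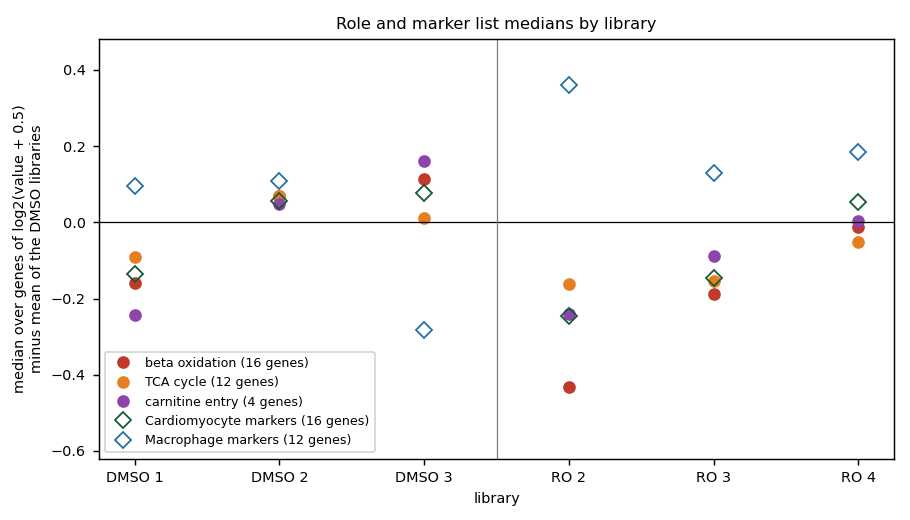
Median over genes of log2(value + 0.5) minus the mean of the DMSO libraries, by library, for 3 roles of the members (filled) and for cardiomyocyte and macrophage markers (open). Beta oxidation stands at -0.43 in RO replicate 2, -0.19 in RO replicate 3 and -0.013 in RO replicate 4, and cardiomyocyte markers at -0.25, -0.15 and 0.053.

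Of ketone body use, acat1, the mitochondrial acetoacetyl-CoA thiolase, stood at 138, 157 and 159 in DMSO and at 136, 137 and 151 in RO (-0.095, adjusted p = 0.776). RO replicates 2 and 3 lay just below all DMSO pools and RO replicate 4 among them. bdh1, which converts ketone bodies into each other, stood at 6.81, 4.13 and 6.25 against 5.31, 7.88 and 6.57 and rests on 16 to 36 reads per library (0.20, interval -0.38 to 0.78).

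Uncoupling proteins let protons or metabolites cross the inner membrane and are known targets of fatty acid sensing receptors in mammals. ucp2, widely expressed and abundant in immune cells of mammals, stood at 170, 204 and 212 in DMSO and at 273, 237 and 292 in RO. All RO pools lay above all DMSO pools, and the log2 fold change was 0.45 (SE 0.13, interval 0.18 to 0.73), but it did not pass (adjusted p = 0.132). ucp3, of muscle, stood at 57.4, 75.6 and 134 against 53.1, 65.9 and 53.8 (-0.54, interval -1.09 to 0.01, adjusted p = 0.383). Its DMSO pools were spread over a wider range than the difference, and without DMSO replicate 3 the log2 fold change was -0.20.

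The receptors and coactivators that set the level of oxidation genes were low in reads. PPARA, the ID for ppara and pparab, stood at 1.46, 4.90 and 8.04 in DMSO and at 2.79, 1.97 and 2.68 in RO, on 6 to 27 reads per library, and its interval ran from -1.66 to 0.46. DMSO pools spread more widely than the RO pools, which lay within their range. pparaa lay at 0.13 and the 2 PPARD IDs matched to ppardb at -0.16 (ENSDARG00000009473) and 0.26 (ENSDARG00000044525). The coactivator gene ppargc1a, which drives mitochondrial gene expression, stood at 26.0, 24.5 and 24.7 in DMSO and at 17.6, 21.7 and 26.8 in RO (-0.20, interval -0.58 to 0.17, adjusted p = 0.667). DMSO pools lay close together and RO replicate 2 was again the lowest.

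Other genes of the pathway, from lists that were drawn up with earlier results known, gave no call in the main fit. With the replicate block of the closing section each list described here had 1 call, where 405 of all 14211 genes were called. Of 30 IDs of peroxisomal oxidation, carnitine handling and related acyl-CoA enzymes 23 lay below 0, with a median of -0.16. In 12 of the 30 the groups did not overlap and RO was lower, where 9.35% of all genes were so, and in none was RO higher without overlap. The examples from this list are named after their values were seen. The gene crot, coding for a peroxisomal carnitine acyltransferase, stood at 43.0, 42.3 and 46.7 against 24.9, 30.9 and 35.5 (-0.54, adjusted p = 0.136). The peroxisomal bifunctional enzyme gene ehhadh stood at 29.7, 29.4 and 33.0 against 26.8, 21.2 and 22.9 (-0.37, adjusted p = 0.292), and the dienoyl-CoA isomerase gene ech1 at 45.5, 54.7 and 60.1 against 38.3, 42.7 and 41.9 (-0.37, adjusted p = 0.265). Without RO replicate 2 the median of the list was -0.16. Of 28 IDs of pyruvate dehydrogenase and other mitochondrial enzymes 21 lay below 0, with a median of -0.098. Without RO replicate 2 it was 16 of 28, with a median of -0.027, and without DMSO replicate 3 it was 18 and -0.034. The gene sdhb, a subunit gene of the TCA enzyme succinate dehydrogenase, named after its values were seen, stood at 295, 291 and 291 against 234, 237 and 268 (-0.25, adjusted p = 0.324).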

How the data were processed

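RNA was measured in 6 pooled libraries, 3 per group, grouped by the labels. The authors deposited 1 table of scaled signal per gene ID and library. The submitters' processing notes list RSEM 1.2.3, edgeR, CASAVA 1.8, Bowtie2 2.0.6, cutadapt 1.6.1 and the build Zv9, without roles. On annotation and strand use, nothing is given in the sources used here. Values are whole reads divided by 1 factor per library: 100% came out whole within 0.01 read. They are not divided by gene length, so levels were not compared between genes. Depth counts reads of listed genes only. The p-values set each difference against the spread between these pools, which the test moderates with that of genes of like level.

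Values were taken as log2(value + 0.5), without further scaling, and tested with limma 3.58.1 (mean-variance trend, R 4.3.3), RO minus DMSO, over all 14211 IDs with Benjamini-Hochberg adjustment and a threshold of 0.05. A minimum of 1 in 3 libraries removed no ID. This is the test planned for scaled values. The script was tested on simulated data. Fold changes on this scale understate the change of low genes.

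Members and lists were chosen with earlier results of these data known. IDs were named from a table with symbols for 11589 IDs: 40 member IDs matched by name and 9 by name without the paralog letter. Named with all library values were passing members and, per role, those with the smallest p and the highest values; the values of a few others were added after they were seen. The list name dld was not used, being also that of a Notch ligand, nor acta1b. No coordinates, sequences or promoter motifs are given. Chi-square per degree of freedom between libraries of a group was 5.02 to 11.7, so none repeats another. Alternatives used edgeR 4.0.16 and DESeq2 1.42.0 on recovered reads, and other settings given in the closing section.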

Additional observations from a re-analysis of the deposited data

How the results depend on the processing

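The count of 147 genes called over the table was 240 with DESeq2, 156 with edgeR's quasi-likelihood test, 1 without the mean-variance trend, 318 at a threshold of 0.1 and 22 to 105 with 1 library left out. Of the 2 ACSL4 calls, 1 was left under array weights, a pseudocount of 0.1, quantile normalization and robust empirical Bayes, 0 without the trend (adjusted p 0.116 and 0.189), and 0 to 1 with 1 library left out. With members matched by the same name only it was 0, since ACSL4 is matched by stem. The cause of the other losses was not tested. Deviations from the group means correlated at 0.116 and 0.091 for libraries of the same number, and at -0.116 to 0.043 for the other pairs across groups. So few pairs cannot decide whether a number marks a shared batch, and the labels do not say so. Numbers 2 and 3 occur in both groups, in 4 libraries. With a replicate block, which takes the difference from those 4 libraries alone, 405 of the 14211 genes were called, 247 of them higher. Of the 49 members 1 was called higher and 6 lower (acsl1b, cpt1ab, acadm, acadvl, hadhaa and ucp3, adjusted p 0.0198 to 0.0476). The beta oxidation and TCA medians were then -0.43 and -0.23. That fit leaves 1 residual degree of freedom per gene. Its p-values therefore lean more than those of the main fit on the spread of other genes. No other alternative called a member lower. A minimum value of 5 left 6 regulator IDs, with a median of -0.017. Of 49 members 36 kept their direction in every alternative run, and the others turned only at adjusted p of 0.653 or more. Some alternatives cannot alter a direction, among them the fit without the trend, robust empirical Bayes and the threshold of 0.1. Scaling the recovered reads with edgeR's TMM factors gave the same count of 147 and the same role medians. It is therefore no separate check. slc27a1a/b was at 0.035 with array weights and 0.00089 with median-of-ratios scaling. Under the replicate block cpt1b was at -0.14 and pparaa at -0.026. With 1 library left out, log2 fold changes ran from -0.081 to 0.093 for slc27a1a/b, -0.26 to 0.028 for acsl1a, -0.013 to 0.25 for cpt1b, -0.33 to 0.047 for acadl, -0.27 to 0.036 for acad9, -0.29 to 0.037 for acad11, -0.17 to 0.023 for acaa2, -0.21 to 0.057 for idh3b, -0.088 to 0.00035 for idh3g, -0.017 to 0.12 for suclg2, -0.0032 to 0.33 for bdh1, -0.043 to 0.34 for pparaa and -0.061 to 0.46 for the PPARD ID ENSDARG00000044525. Depth limits PPARA, at 6 to 27 reads, and bdh1, at 16 to 36.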

Other observations

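Regulators beyond the members pointed in both directions, and none passed in the main fit. With the replicate block 2 were called, among them perm1b (log2 fold change -0.69, adjusted p = 0.0359). Of 25 measured IDs, 12 lay above 0 and 13 below, with a median of -0.0083 that ran from -0.13 without DMSO replicate 2 to 0.027 without RO replicate 3. In 4 the groups did not overlap with RO higher and in 6 with RO lower, where 9.32% and 9.35% of all genes were so. The examples here are named after their values were seen. esrra, the orphan receptor that acts with the PGC-1 coactivators on oxidation genes in mammals, stood at 17.5, 22.7 and 28.3 in DMSO and at 31.0, 34.4 and 29.7 in RO (log2 fold change 0.49, adjusted p = 0.262). perm1b, a paralog of the muscle gene that PGC-1 and ERR induce in mammals, stood at 93.1, 110.5 and 94.1 against 58.7, 67.2 and 83.2 (-0.52, adjusted p = 0.136). Its paralog perm1a lay the other way, with overlapping groups (0.46, adjusted p = 0.498). The retinoid receptor gene rxrga stood at 17.3, 17.6 and 17.9 against 26.0, 25.6 and 24.1 (0.51, adjusted p = 0.127), while its paralog rxrgb lay the other way without overlap, at 9.24, 8.78 and 8.04 against 5.59, 6.79 and 5.35 (-0.52, adjusted p = 0.311). The corepressor gene NRIP1 (listed as nrip1a) stood at 45.7, 35.1 and 40.8 against 27.9, 30.4 and 23.8 (-0.55, adjusted p = 0.127).

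Genes of lipid synthesis, storage and carriage gave no call in the main fit either. With the replicate block acacb was called (log2 fold change -0.83, adjusted p = 0.00869). The 9 IDs of fatty acid synthesis had a median of 0.15, which was -0.0046 without RO replicate 4, -0.016 with a minimum value of 5 and 0.084 with DESeq2. The 16 of lipolysis and triacylglycerol synthesis had a median of 0.029, which turned to -0.025 when DMSO replicate 1 was left out and to -0.031 when RO replicate 3 was. The 11 of binding and carriage had a median of 0.071, which was 0.25 without DMSO replicate 2 and -0.0050 with the replicate number as a block. acacb, the carboxylase whose product malonyl-CoA restrains carnitine palmitoyltransferase, stood at 223, 272 and 351 in DMSO and at 137, 222 and 220 in RO (-0.56, adjusted p = 0.264). Its paralog acaca lay the other way without overlap, at 28.0, 27.6 and 28.9 against 34.4, 35.5 and 33.6 (0.29, adjusted p = 0.349). The lipoprotein receptor gene ldlrb stood at 4.13, 2.58 and 3.27 against 14.5, 6.35 and 8.27 (1.36, adjusted p = 0.0805). The genes named from these lists were picked after their values were seen.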
